A study of Mus musculus with 3 samples.

Results

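The slit diaphragm is the cell junction that spans the gap between neighbouring foot processes of the podocyte. Transcripts of 10 genes of its protein complex were examined in 3 samples of adult mouse renal corpuscle, out of 19938 genes with a value. The genes were Nphs1, Kirrel, Kirrel2, Kirrel3, Cd2ap, Ptpro, Trpc6, Plce1, Fat1 and Fyn, chosen by name for their role at this junction. Each was found among probe sets whose platform annotation names that symbol only, and a gene with more than 1 such probe set took the brightest by mean log2 signal. All 10 had a value. The corpuscle is the filtering unit of the nephron, a tuft of capillaries wrapped by podocytes inside its capsule. The mice were wild-type adult males of CD-1, an outbred stock, aged 7 to 9 weeks. Each sample pooled about 2 kidneys that were minced, digested for 15 minutes at 37 °C with collagenase A (0.5%) and passed through filters of 100, 70 and 40 µm. All 3 samples belong to 1 group, with no control tissue, and no cell type was sorted out, so each value is that of every cell in the preparation.

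Nephrin, encoded by Nphs1, and the Neph proteins, encoded by the Kirrel genes, are adhesion proteins of the immunoglobulin superfamily that reach across the slit and bind each other. Fyn, a kinase of the Src family, phosphorylates the inner tail of nephrin, which then recruits adaptors of the actin cytoskeleton. Cd2ap ties nephrin to actin and to survival signalling, Trpc6 is a calcium channel of the foot process and Plce1 a phospholipase that makes second messengers. Loss of function in several of these genes, and gain of function in Trpc6, is known to cause nephrotic syndrome.

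Signal was present for 9 of the 10 genes above background, whereas 58.9% of all genes with a value were detected. Background was the 95th percentile of 1212 probe sets that measure olfactory or vomeronasal receptor genes, and it lay at 6.90, 6.96 and 6.92 log2 on replicates 1, 2 and 3. Detection was called by limma, a linear model fitted across all genes, at an adjusted p under 0.05. The gene that was not detected was Kirrel3. The median height of the 10 genes above background was 3.27 log2, against 0.37 over all genes. A linear signal over 150 on all 3 arrays was found for 9 of the 10 genes (51.3% of all genes), over 500 for 6 (17.2% of all genes) and over 1000 for 5 (7.59% of all genes). Marks of this size are used in the study's own screens. Each probe set has its own affinity, so the signals describe single genes and do not rank their transcripts.

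**Figure D1:**
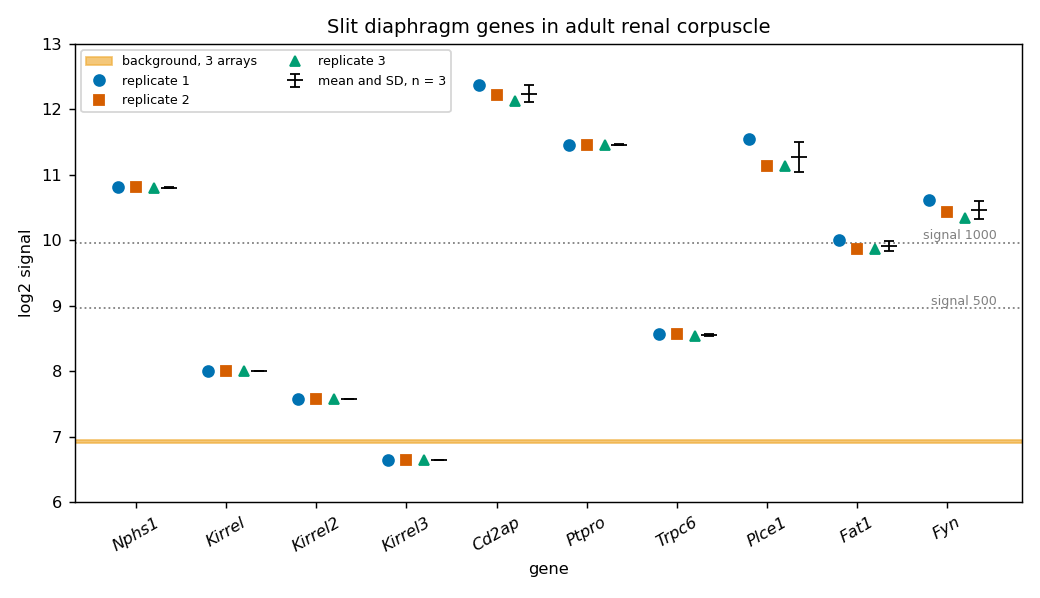
log2 signal (vertical axis) of the 10 slit diaphragm genes (horizontal axis) on each of the 3 arrays; black bars give each mean with its SD (n = 3), the orange band spans the background of the arrays from 6.90 to 6.96 and dotted lines mark linear signals of 500 and 1000. Kirrel3 alone lies below the band, and Plce1 has the widest spread of the 10.

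The genes of the slit diaphragm include a pair that lie close together on chromosome 7, Nphs1 and Kirrel2. In the RefSeq annotation of GRCm38.p6 they are transcribed away from each other, with 2543 bases between their starts. With genes ordered by lowest coordinate, 1 gene, the long noncoding RNA Gm45979, is listed between them. Whether it lies within those bases was not examined. Of the 10 genes, 9 have an entry among 32851 promoter windows, and the 250 bases before the annotated start are considered here. Those of Nphs1 and Kirrel2 are printed because the genes share this neighbourhood, and that of Cd2ap because it was the richest of the 9 in CpG. Each reads 5′ to 3′ on the strand of its gene, with every CpG in capitals. That of Nphs1 lies at chr7:30459808-30460057 on the plus strand, that of Kirrel2 at chr7:30457516-30457765 on the minus strand and that of Cd2ap at chr17:42876425-42876674 on the minus strand, all upstream of the first exon.
Nphs1: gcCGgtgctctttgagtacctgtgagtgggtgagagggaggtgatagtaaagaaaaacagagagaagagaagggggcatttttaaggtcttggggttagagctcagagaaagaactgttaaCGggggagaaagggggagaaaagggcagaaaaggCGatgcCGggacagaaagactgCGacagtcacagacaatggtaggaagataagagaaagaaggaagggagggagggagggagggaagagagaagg
Kirrel2: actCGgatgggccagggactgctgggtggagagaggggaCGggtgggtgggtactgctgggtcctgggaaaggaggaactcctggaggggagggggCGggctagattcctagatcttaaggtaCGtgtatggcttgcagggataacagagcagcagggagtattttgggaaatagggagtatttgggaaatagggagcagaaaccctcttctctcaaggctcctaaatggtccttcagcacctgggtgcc
Cd2ap: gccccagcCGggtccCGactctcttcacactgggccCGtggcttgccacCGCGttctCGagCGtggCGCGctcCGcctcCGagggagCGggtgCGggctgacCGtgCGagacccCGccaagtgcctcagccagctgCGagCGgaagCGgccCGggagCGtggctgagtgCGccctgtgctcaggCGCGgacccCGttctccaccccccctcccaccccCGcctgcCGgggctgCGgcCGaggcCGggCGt
The window of Nphs1 held 5 CpG and 50.8% G and C, and that of Kirrel2 held 4 CpG and 56.4%, close to the median of all windows, 6 CpG and 52.4%. That of Cd2ap held 31 CpG and 76.4%, more CpG than 94.8% of all windows. Fyn with 21 CpG and Kirrel with 24 were also rich, whereas Ptpro held 3, Fat1 2, Plce1 6 and Trpc6 12. These counts describe sequence only, and no measurement here bears on promoter activity.

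The adhesion proteins that form the junction are taken first. Nphs1 (gene ID 54631, probe set 10551907) had log2 signals of 10.81, 10.81 and 10.79 on replicates 1, 2 and 3. Its mean corresponded to a linear signal of 1788 and lay 3.88 log2 above background (limma SE 0.046). This SE and those given below follow the level of a gene and do not measure its own spread. The 3 preparations were within 1.01-fold of each other. The annotation assigns Nphs1 alone to a second probe set as well, 10551905, and its signals were 6.91, 7.02 and 7.02, only 0.063 log2 above background. The sequences listed for that probe set do not include the RefSeq messenger RNA of Nphs1, which is listed for the first.

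Kirrel (gene ID 170643, probe set 10499168), which encodes Neph1, the Neph protein whose loss causes proteinuria in mice, had the same log2 signal, 8.01, on all 3 arrays. This is 1.09 above background (SE 0.035) and a linear signal of 258. Kirrel2 (gene ID 243911, probe set 10561942), which encodes Neph3, also called filtrin, held 7.58 on all 3 arrays, 0.66 above background (SE 0.032) and a linear signal of 191. Kirrel3 (gene ID 67703, probe set 10584165), which encodes Neph2 and is best known from neurons, held 6.65 on all 3 arrays. It lay 0.27 log2 below the mean background level and was above background on 0 of 3 arrays. Signal was thus found for nephrin and for 2 of the 3 Neph genes. The detection of Kirrel2 ended when background was raised to the 99th percentile of receptors, where it lay 0.021 log2 above it. Kirrel3 was detected only with the median of receptors as background, a level that 18031 genes passed.

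Fat1 (gene ID 14107, probe set 10571530), a very large cadherin of the slit, had log2 signals of 10.01, 9.87 and 9.87 on replicates 1, 2 and 3. Its mean was 9.92 ± 0.08 (SD, n = 3), 2.99 above background (SE 0.044), with a linear signal of 967. Replicate 1 was the high one and the others were equal. Of the other cadherins of its family, Fat4, a receptor for Dachsous ligands in tissue polarity, held 7.77 on all 3 arrays, 0.85 above background, and Fat3 held 7.00, 0.080 above it. Fat2 was not detected, at 6.60. Of the 4 Fat genes, Fat1 was the one with a signal over 500.

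Cd2ap (gene ID 12488, probe set 10451004), the adaptor between the nephrin tail and actin, had log2 signals of 12.38, 12.22 and 12.12 on replicates 1, 2 and 3. The mean was 12.24 ± 0.13 (SD, n = 3), 5.32 above background (SE 0.047), and the linear signals were 5327, 4784 and 4465. Replicate 1 was highest and replicate 3 lowest, 1.19-fold apart. Ptpro (gene ID 19277, probe set 10542414), a receptor tyrosine phosphatase of the podocyte surface also called GLEPP1, had 11.46, 11.46 and 11.45. It lay 4.54 above background (SE 0.047), with a linear signal of 2817, and its preparations were within 1.01-fold of each other.

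Fyn (gene ID 14360, probe set 10362596) had log2 signals of 10.62, 10.44 and 10.34 on replicates 1, 2 and 3. The mean was 10.47 ± 0.14 (SD, n = 3), 3.54 above background (SE 0.046), with linear signals of 1572, 1389 and 1295. As for Cd2ap, replicate 1 was highest and replicate 3 lowest. Fyn is also used by lymphocytes and other cells. Of 11 immune markers 6 were detected (54.5%, against 58.9% of all genes), among them the pan-leukocyte gene Ptprc at 8.64, 8.64 and 8.35 and the T cell gene Cd3e at 7.36 on all 3 arrays, while Cd3g was not, at 6.94 ± 0.20. The summed linear signal of the list was 2695, 2960 and 2326 on replicates 1, 2 and 3, highest on replicate 2. Its part in the signal of Fyn was not tested.

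Plce1 (gene ID 74055, probe set 10462922) had log2 signals of 11.55, 11.14 and 11.14 on replicates 1, 2 and 3. The mean was 11.27 ± 0.24 (SD, n = 3), 4.35 above background (SE 0.047), with linear signals of 2992, 2249 and 2257. Replicate 1 was 1.33-fold above the lowest of the others, which were close together. Trpc6 (gene ID 22068, probe set 10583163) had 8.57, 8.57 and 8.54. It lay 1.63 above background (SE 0.038), with a linear signal of 377 and little spread. Of the 10 genes, Trpc6, Kirrel, Kirrel2 and Kirrel3 were those with signals under 500.

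The 10 genes were next compared between the preparations. Exactly equal values are common in this table: for 54.2% of all genes the 3 arrays hold 1 signal, and for 27.5% just 2 arrays coincide. Among the slit diaphragm genes 3 held 1 value throughout, 4 had 2 arrays alike and 3, Cd2ap, Plce1 and Fyn, had 3 different signals. An SD of 0 is therefore not an error of 0, and the SDs may understate the spread between preparations. The median SD of the 10 genes was 0.012 log2, against 0.0094 over all 11752 detected genes. For the 3 genes with different signals on every array it was 0.14, against 0.094 over the 3013 detected genes of that kind. The SD of Plce1 exceeded that of 89.9% of these 3013 genes, that of Fyn exceeded 70.8% and that of Cd2ap 66.5%. Differences over 2-fold were rare in the whole table, with 26, 10 and 38 of 11752 detected genes between replicates 1 and 2, 1 and 3, and 2 and 3, and none of the 10 genes was among them.

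**Figure D2:**
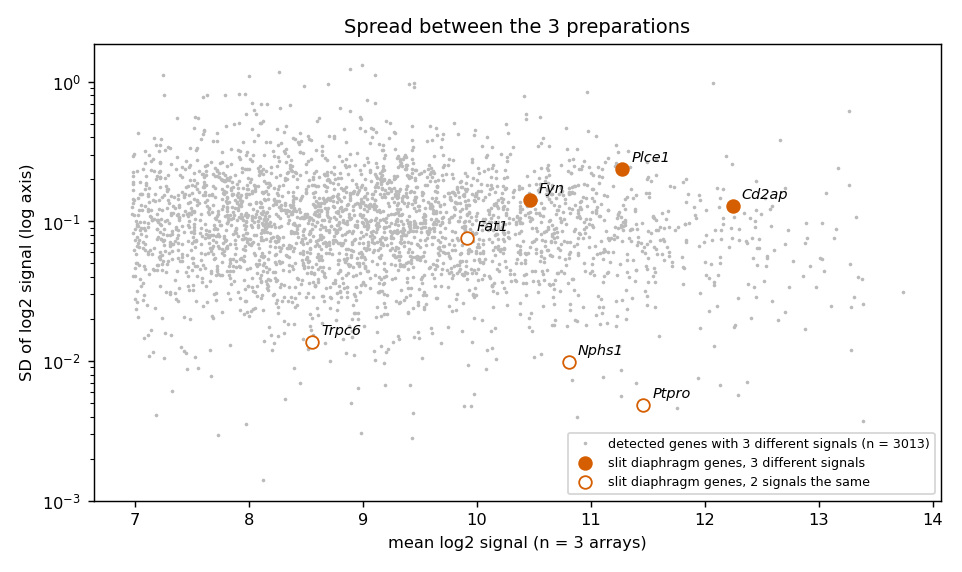
SD of the log2 signal over 3 arrays (vertical log axis) against its mean (horizontal axis) for 3013 detected genes with 3 different signals (grey) and for the slit diaphragm genes, filled where all 3 signals differ and open where 2 are the same; Kirrel and Kirrel2, with an SD of 0, and Kirrel3, which was not detected, are not drawn. Plce1, Fyn and Cd2ap lie within the cloud, and Trpc6, Nphs1 and Ptpro among its sparse lower points.

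Deviations from the 3-array mean were then counted on each array. On replicate 1, 7 of the 10 genes lay above their own 3-array mean, 0 below it and 3 at it. Cd2ap, Plce1, Fat1 and Fyn were each highest there. On replicate 2, 3 genes were above the mean (Nphs1, Ptpro and Trpc6) and 4 below (Cd2ap, Plce1, Fat1 and Fyn). On replicate 3, 0 were above and 7 below, and over all detected genes 2876 were above and 3700 below. The mean deviation was 0.067 log2 on replicate 1, -0.021 on replicate 2 and -0.046 on replicate 3. The medians were 0.0068, 0 and -0.014, held down by the equal values. Over all detected genes, 3883 lay above their mean on replicate 1 and 2693 below, with a mean deviation of 0.011, and over the 3013 with 3 different signals 1875 lay above and 1138 below. With 1 sample for each preparation these differences have no test.

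Marker lists were set beside these deviations, those of podocytes first. Of 20 podocyte markers 10 were above their mean on replicate 1 and 2 below, with a mean deviation of 0.032 log2 and a median of 0.0057. Of 15 endothelial markers 10 were above and 1 below, with a mean of 0.038 and a median of 0.0074. Of 11 mesangial markers, which here include smooth muscle genes, 1 was above and 5 below, with a mean of -0.11 and a median of 0. That mean rests mainly on Acta2 at -0.60, Myh11 at -0.33 and Agtr1a at -0.28, while Pdgfrb, Itga8, Cspg4, Thy1 and Tagln were at 0. Of 12 proximal tubule markers 1 was above and 7 below, with a mean of -0.079 and a median of -0.0026. The summed linear signal of the podocyte markers was 46155, 44290 and 44462 on replicates 1, 2 and 3, and that of the slit diaphragm genes was 16465, 14906 and 14458. The mean deviation on replicate 1 was also positive outside these lists. It was 0.033 for 11 immune markers and 0.030 over the 3013 detected genes with 3 different signals, close to that of the podocyte markers. In bulk samples a larger share of podocytes and more RNA per podocyte cannot be told apart, and the part of cell composition in these values was not tested.

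**Figure D3:**
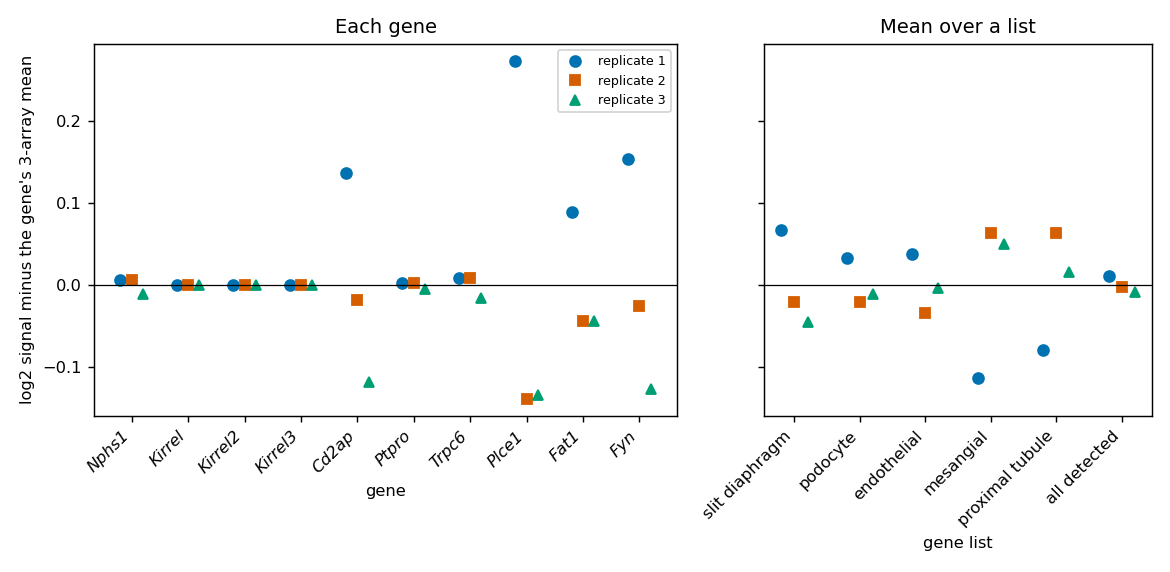
Difference of the log2 signal on each array from the gene's own 3-array mean (vertical axis), for each slit diaphragm gene (left) and as the mean over the genes of 6 lists (right). Replicate 1 is above 0 for Cd2ap, Plce1, Fat1 and Fyn, in the podocyte and endothelial lists and, at 0.011, over all detected genes. It is below 0 in the mesangial and proximal tubule lists.

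The partners of the slit diaphragm proteins were then examined in 6 lists with 95 genes, of which 84 had a value. Of these, 72 (85.7%) were detected, against 58.9% of all genes. A signal over 500 on all 3 arrays was found for 31 of the 84, and for 17.2% of all genes. The median height above background differed between lists, from 2.37 log2 for linkers to actin to 0.083 for the Fat and Dachsous cadherins. The lists describe the pathway around the 10 genes, were chosen with earlier results of these data known and were not tested against other genes.

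Scaffolds and adaptors of the junction were detected in 20 of 21 cases (95.2%, against 58.9% of all genes), with a median height of 2.07 log2. Tjp1, the tight junction scaffold ZO-1 that binds the tails of Neph proteins, had 12.04, 12.02 and 11.91 on replicates 1, 2 and 3, a mean of 11.99 ± 0.07 (SD, n = 3). Pik3r1, the regulatory subunit of the PI3 kinase that nephrin and Cd2ap engage, was at 11.01 ± 0.09. Prkci, the atypical protein kinase C of the polarity complex, held 10.39 on all 3 arrays, and Ctnnb1, beta-catenin, was at 10.30 ± 0.02. The cadherin gene Cdh3, whose product, P-cadherin, has been described at the slit, was not detected, at 6.13. Members named after their values were seen were Nck1 at 10.13 ± 0.18 and Nck2 at 7.73, adaptors that bind phosphorylated nephrin, Sh3kbp1, the closest relative of Cd2ap, at 8.97 ± 0.05, and Crb2, a polarity protein of the foot process, at 7.30.

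Linkers to actin were detected in 20 of 21 cases (95.2%, against 58.9% of all genes). A signal over 500 was found for 13 of them, and for 17.2% of all genes. Arpc2, a subunit of the Arp2/3 complex that branches actin filaments, held 12.82 on all 3 arrays. Myo1e, a membrane-bound myosin of the podocyte, was at 11.68 ± 0.09 (SD, n = 3), with 11.79, 11.65 and 11.61 on replicates 1, 2 and 3. Capza1, a capping protein of actin and partner of Cd2ap, held 11.66, and Arhgap24, a Rac-inactivating protein, held 11.47. Anln, anillin, an actin-binding protein of dividing cells, was not detected, at 6.55. Also named after their values were seen were the actin crosslinker Actn4 at 11.41 and Synpo, synaptopodin, at 9.03 ± 0.06.

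**Figure D4:**
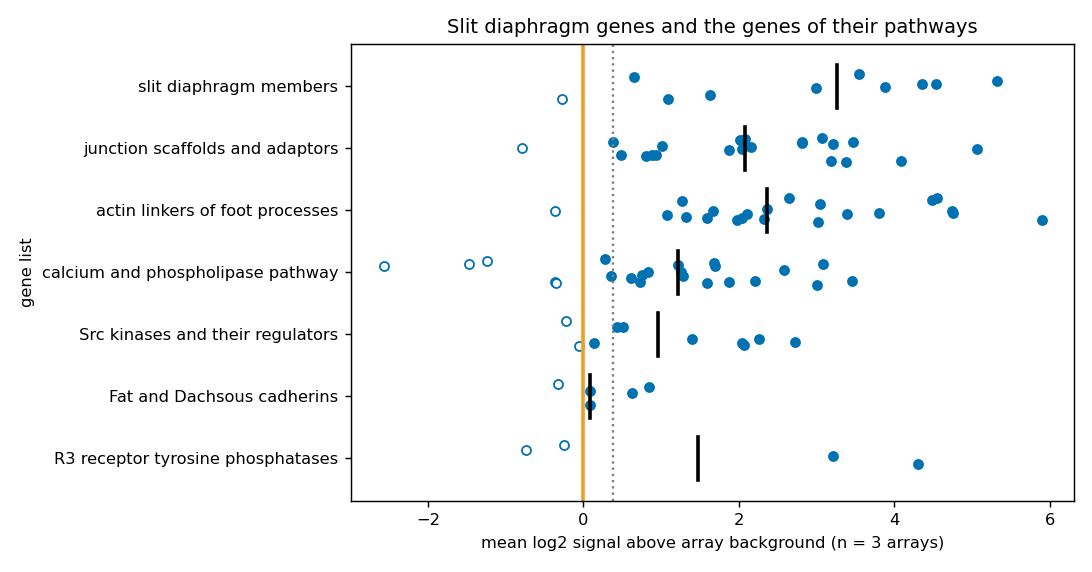
Mean log2 signal above array background over n = 3 arrays (horizontal axis) of each gene in 7 lists (rows), with filled points for detected genes, open points for genes not detected, black bars at the list medians, the orange line at background and the dotted line at the median of all genes, 0.37. The slit diaphragm genes have their median at 3.27, and only Kirrel3 of them is open.

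Of the calcium and phospholipase genes 18 of 23 were detected (78.3%, against 58.9% of all genes). Calcineurin, the calcium-activated phosphatase downstream of Trpc6, was represented by Ppp3ca at 10.38 ± 0.11 log2 (SD, n = 3) and Ppp3cb at 9.93 ± 0.03, and its target Nfatc3 was at 9.51 ± 0.02. Among 5 Trpc channels with a value, 3 were detected, Trpc6, Trpc1 at 10.01 ± 0.04 and Trpc4 at 9.13, while Trpc5 and Trpc7 were not, at 5.45 and 5.68. The 2 Trpc channels with a signal over 500 on all arrays were Trpc1 and Trpc4, and Trpc6 was under it. Of 11 phospholipase C genes 9 were detected, and Plce1 was the one with a signal over 500. Plcz1, known from sperm, was not detected, at 4.36.

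Of the Src kinases and their regulators 8 of 10 were detected (80%, against 58.9% of all genes). Ptpn11, the phosphatase SHP2 that nephrin recruits, held 9.64 log2 on all 3 arrays, Yes1 had 9.45, 9.13 and 8.96 on replicates 1, 2 and 3, Frk was at 8.99 ± 0.10 (SD, n = 3) and the ubiquitin ligase gene Cbl at 8.96. Src and Fgr were not detected, at 6.70 and 6.86. Yes1, a kinase closely related to Fyn, was highest on replicate 1 and lowest on replicate 3, as Fyn was. This order was also that of Tjp1 and Myo1e and, among other listed genes, of Ppp3ca, Nck1 and Ptprj. Replicate 1 was highest for 1529 of the 3013 detected genes with 3 different signals. How many of them shared the full order was not counted. Of 6 Src family kinases with a value, Fyn was the one with a signal over 500 on all arrays.

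Of the receptor tyrosine phosphatases in the subfamily of Ptpro, 2 of 4 were detected (50%, against 58.9% of all genes). Ptprb, the endothelial phosphatase VE-PTP, was at 11.23 ± 0.03 log2 (SD, n = 3), and Ptprj, a phosphatase of endothelial and blood cells among others, was at 10.13 ± 0.18. Ptprh and Ptprq were not detected, at 6.18 and 6.67. With Ptpro included, 3 of the 5 had a signal over 500 on all arrays, namely Ptpro, Ptprb and Ptprj. Of the Fat and Dachsous cadherins 4 of 5 were detected (80%, against 58.9% of all genes). Besides Fat4 and Fat3 these were Dchs1, the Dachsous ligand, at 7.54 ± 0.02, and Fjx1, the relative of the kinase four-jointed, at 7.01. Fat3 and Fjx1 were 0.080 and 0.083 log2 above background, and their calls ended without replicate 1 or without replicate 3. Fat3 has 15 probe sets, and the mean over them lay at -1.33 relative to background.

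The label of renal corpuscle was checked against cell type markers. Arrays correlated across genes with Pearson's r of 0.998 for each pair, and genes are not independent replicates. Because of the equal values described above, r may overstate how alike the preparations were. All 20 podocyte markers with a value, all 15 endothelial markers and all 11 mesangial markers were detected. The podocyte list was led by Dpp4 at 12.59 ± 0.03 log2 (SD, n = 3) and Cdkn1c at 12.44 ± 0.10. Also named from it after their values were seen were Wt1 at 10.79, Foxc2 at 11.88 and Podxl at 12.33. Whether Dpp4 and the other markers of this list were specific to podocytes in these samples was not tested. The endothelial list was led by Emcn at 12.86 ± 0.01 and Kdr at 11.72 ± 0.02. The mesangial list was led by Ptn at 12.63 ± 0.02 and Itga8 at 11.73. Tek, an endothelial receptor to which the study turned for its own purity check, had 11.00, 10.49 and 10.72 on replicates 1, 2 and 3. Of the tubule lists, 11 of 12 proximal markers (91.7%), led by Kap at 10.61 ± 0.16 and Gatm at 9.70 ± 0.04, and 8 of 12 markers of later nephron segments (66.7%), led by Calb1 at 9.39 ± 0.22 and Umod at 9.24 ± 0.51, were detected, against 58.9% of all genes. The immune markers were led by Tyrobp at 9.08 ± 0.41 and Lyz2 at 8.83 ± 0.46. Genes of macrophages and related cells went both ways. Cd14 at 8.78 and Cd68 at 7.73 were detected, while Adgre1, Itgam and C1qa were not. Cd79a, of B cells, did not pass. Of 9 neuronal markers 2 were detected (22.2%), Stmn2 and Syp. How much of each slit diaphragm transcript came from cells other than podocytes was not tested.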

How the data were processed

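Biotin-labelled RNA from 3 pooled samples of sieved renal corpuscle, amplified in 1 round with a NuGEN kit per the labels, was measured on Affymetrix mouse gene arrays. The authors deposited 1 table of log2 signals for 35557 probe sets. Affymetrix Expression Console is the tool listed in the submitters' processing notes, while its method and settings are not given in the sources used here. All values were used as deposited, with medians of 7.11, 7.11 and 7.09 per array, and 0 columns belonged to other samples. Having 3 arrays limits the precision.

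The platform annotation gives 1 symbol for 21789 probe sets, several for 1621 and none for 12147, and probe sets with several named no gene. A gene took its probe set of highest mean log2 signal. Linear signals are 2 to the power of log2. Detection was a one-sided test of log2 signal minus background with limma 3.58.1 in R 4.3.3 (lmFit with an intercept, eBayes with a trend), with Benjamini-Hochberg adjustment over 19938 genes. Its SE follows the level of a gene rather than the gene's own spread, and because of equal values p-values may be too small, so none are printed. The test was tried on simulated data. These held no gene as little above background as Fat3 and Fjx1, so they do not bear on such calls. Whether the pools differ in litter or day is not stated in the labels, and their spread may be partly technical. The genes and lists were chosen with earlier results of these data known. Named beside the 10 genes were the 4 detected genes of highest and up to 3 undetected genes of lowest signal in each pathway list, the 2 of highest signal in each marker list, and Tek. Some others, Wt1, Foxc2 and Podxl among them, were named after their values were seen. No gene was selected by correlation, since 3 arrays are too few for one. The order of replicates that Fyn shared with Cd2ap, Yes1 and others was remarked after their values were seen and was not tested. Promoter sequences are from RefSeq (GRCm38.p6). Alternatives were other background levels, quantile normalization, the mean over probe sets, no trend and leaving out each replicate. List genes that lack a probe set of their own were not analysed here.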

Additional observations from a re-analysis of the deposited data

How the results depend on the processing

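The count of 9 slit diaphragm genes, the count of 6 over a signal of 500 and the count of 72 pathway genes stayed within 1.5 times under every alternative run, those without a replicate included. Over the 10 genes and 9 alternatives, 88 of 90 single calls were unchanged, and the exceptions were those of Kirrel2 and Kirrel3 given above. Not every alternative could move a gene. Only Nphs1 has more than 1 probe set, so the mean over probe sets left the heights of the others as they were. Genes with equal values keep their signal when a replicate is left out. The median height of the 10 genes above background was 2.63 log2 with the 99th percentile of receptors, 4.82 with their median and 2.96 with a fixed signal of 150, since these set another level. It was 2.48 with the mean over probe sets, which lowered Nphs1 from 3.88 to 1.97 log2 above background. Their median SD was 0.14 over the genes with 3 different signals. The deviations summarised by the mean, 0.067, -0.021 and -0.046 on replicates 1, 2 and 3, were larger than the medians because of equal values. Among named pathway genes, Dchs1 at -0.015, Fat3 at -0.56 and Fjx1 at -0.55 fell below the 99th percentile of receptors. Fat3 at -0.22 and Fjx1 at -0.22 were below a signal of 150, and Fat3 was at -1.33 with the mean over probe sets. With the median of receptors as background 9 named pathway genes that were otherwise undetected were called. No paired analysis was possible because there is only 1 group.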
